A study of Danio rerio with 5 samples.

Results

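The 300 genes with the highest array signal in vehicle-treated young adult zebrafish were taken out of 8793 ranked genes. They were chosen by their measured values: on the array labelled DMSO, every probe set other than the manufacturer's controls was ordered by its log2 level, each gene symbol was given its highest probe set, and the 300 highest symbols were kept. Levels and ranks on that array are therefore a description of the choice and carry no test.

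The series holds 5 Affymetrix zebrafish 3' expression arrays, with 1 array for each condition: DMSO (the vehicle), benzene, toluene, formaldehyde, and a mixture of these 3 compounds labelled BTF mix. All fish were young adults of the wild-type AB line, all compounds had been dissolved in DMSO, and each exposure lasted 24 h without food. Total RNA was purified on columns and copied into biotinylated cRNA. The entry for sex is the same for all samples and names neither males nor females. The sources used here state no tissue, dose or number of pooled fish. Because there is 1 array per condition, no value has a replicate error, and precision is limited by the single array. Of the 5 arrays, the one of the BTF mix stood apart: it shared 152 of its 300 highest genes with the DMSO array, where the others shared 272 to 279. The counts for the DMSO array do not use its values, although RMA normalizes arrays together.

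In a whole adult fish, abundant RNA comes from machinery that every cell needs, such as ribosomes, respiration and the cytoskeleton, and from tissues that make much of a few proteins, such as muscle fibres, liver and exocrine pancreas. A female that carries oocytes adds a further store: the oocyte accumulates transcripts for its own envelope and for the early embryo, which is transcriptionally silent and lives on maternal RNA until its own genome is switched on. Yolk protein precursors, the vitellogenins, are made in the liver under oestrogen and are taken up by the oocyte.

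The 300 levels ran from 14.85 for zp3.1 down to 12.01 for gmnn on the log2 scale, with a median of 13.06. The median of all 8793 genes was 8.001. On the linear scale, the 300 genes held 41.6% of the summed level of all genes. A 1-unit step on the log2 scale is a 2-fold step in signal, but probe sets bind their targets unequally well and the method compresses the highest values, so the order is one of array signal and not strictly of the number of transcripts. In RNA of mixed cells, a low level from few cells and a low level from little RNA per cell cannot be told apart.

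The limit fell in a dense stretch of the ranking. The last genes inside it were sod1 at 12.03, hmgb2a at 12.03, sumo3a at 12.02, selenoh at 12.02 and gmnn at 12.01, and the first outside it were spsb1 at 12.01, ndufa4a at 11.998, ybx1 at 11.997, vcp at 11.99 and aldoaa at 11.99. These 10 genes lie within a narrow span of signal, so membership near the limit says little about any one of them.

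Among the 10 highest genes were oocyte products and machinery of all cells. At the top was zp3.1, which encodes a zona pellucida protein of the egg envelope, and zp2.6 and zpax1, of the same superfamily, stood at ranks 3 and 10 with 14.52 and 14.27. The claudin gene cldnd, an oocyte transcript in zebrafish, was at rank 8 with 14.33. Translation and respiration were represented by eef1a1l1, a form of elongation factor 1-alpha, at rank 6 with 14.38, and by COX1, the mitochondrially encoded subunit of cytochrome c oxidase, at rank 7 with 14.37. Rank 5 was mpv17, a protein of the inner mitochondrial membrane, at 14.44. That probe set is marked by the manufacturer as able to bind several transcripts, and the gene's only unmarked one was at 4.19. Rank 9 was retsatl, named as a relative of retinol saturase, at 14.28. The remaining places, ranks 2 and 4, went to si:dkey-229d11.5 at 14.65 and zgc:173856 at 14.48, whose names are clone or collection names and carry no stated function. By the same probe sets on the mix array, eef1a1l1 was at 14.60 and COX1 at 14.79. There mpv17 was at 6.20, retsatl at 7.27, si:dkey-229d11.5 at 6.59 and zgc:173856 at 6.07.

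Sorted into 13 classes, the 300 genes were led by ribosome and translation with 83 genes, followed by egg coat and oocyte with 36, clone-style names with 33, energy and metabolism with 27, cell cycle and chromatin with 22 and folding, secretion and protein turnover with 21. The small classes of tissue products were muscle with 10 genes, liver secretion and yolk precursors with 7 and pancreas and gut with 5. The classes were not spread evenly along the ranking. Among the first 100 ranks were 36 ribosome and translation genes, 14 egg coat and oocyte genes and 14 clone-style names. Energy and metabolism had 15 of its 27 genes in the last 100 ranks, against 8 in the first 100 and 4 between them.

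**Figure D1:**
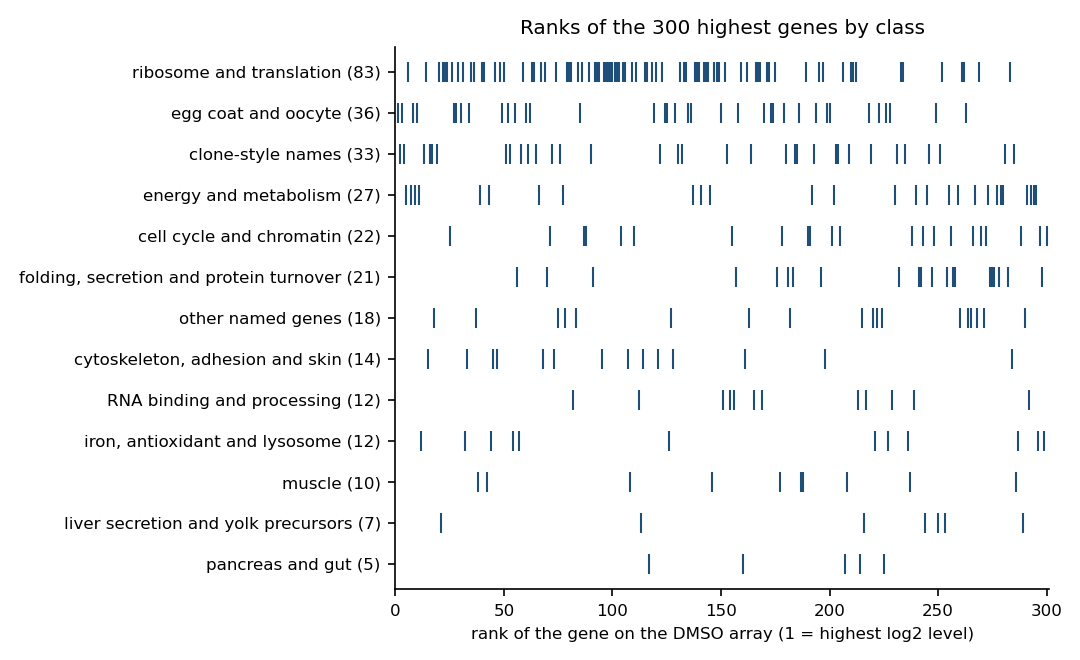
Each mark is one of the 300 highest genes of the DMSO array, placed by its rank (x axis, 1 is the highest log2 level) in the row of its class, with the number of genes in brackets. Egg coat and oocyte genes occupy ranks 1, 3, 8 and 10, ribosome and translation genes are densest in the first 200 ranks, and none of the 5 pancreas and gut genes is in the first 100.

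As a yardstick for the gene lists below, the 300 genes are 3.41% of all genes ranked. Since the ranking itself chose them, the counts describe which groups fill the top and are no test of enrichment.

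The egg coat list held 16 ranked zona pellucida genes, and 11 of them were among the 300. After zp3.1, zp2.6 and zpax1 came zp3f.1 at 13.99, zp3a.2 at 13.92, zpax4 at 13.89, zp3a.1 at 13.75, zp3b at 13.69, zpcx at 13.49, zp2l1 at 13.196 and zp3c at 12.99. The 5 others were lower but all above the median gene: zp3f.2 at 11.43, zp2l2 at 10.82, zp3d.2 at 10.69, zp3d.1 at 9.798 and zpd at 9.35. The median of the whole list was 13.59, the highest of all 31 lists. These genes lie in families of similar sequence, and zp3.1 was represented by a probe set that the manufacturer marks as able to bind several transcripts. Its other probe set, without such a mark, was at 14.44. When marked probe sets were left out, the count of included egg coat genes was also 11.

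Maternal oocyte factors gave 19 of 35 ranked genes. Factors that hold or regulate stored mRNA were zar1 at 13.74 and its relative zar1l at 13.72, the cytoplasmic polyadenylation factor cpeb1b at 13.21, the zinc finger gene cth1 at 13.13, and btg4, which in the mouse is needed to clear maternal mRNA, at 13.21. Transcription factors that prepare the switch to the embryo's own genome were nanog at 13.14 and pou5f3 at 12.55. The architecture of the oocyte was represented by buc, the organiser of the Balbiani body, at 12.895 and by mid1ip1l, a maternal cytoskeletal regulator, at 13.99.

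Further maternal factors packed or handled chromatin and drove meiosis and early cleavage. The maternal linker histone h1m was at 13.76, the nucleoplasmin gene npm2b at 12.91 and slbp2, which encodes a histone mRNA binding protein, at 12.904. The meiotic kinase mos was at 12.51, ccna1, a cyclin A gene of germ cells and the early embryo, at 13.25, and birc5b, a survivin of the chromosomal passenger complex, at 12.52. Nuclear import was covered by kpna7 at 12.78 and kpna2 at 12.33, both importin alpha genes, and the oogenesis-related gene org stood at 13.07. With cldnd, these complete the 19. Outside the 300, the highest of the list were ybx1 at rank 303, wee2 at rank 356 with 11.71 and cdca9 at rank 382 with 11.58, so the list went on past the limit.

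Other genes of the class, placed in it by hand after the symbols were seen, were gdf3, the maternal Vg1 partner of Nodal signals, at 12.58, the vitellogenin receptor gene vldlr at 12.82, gtf3ab, which binds 5S ribosomal RNA and its gene, at 12.84, and gtsf1, known from small RNA silencing in the mouse germ line, at 12.86. Also placed there by hand were larp6a at 12.77 and caprin2 at 12.26.

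Of the 17 ranked genes on the list for germ plasm and germ cell RNA binding, 0 were included, a count that the 3.41% of all genes makes uninformative in so short a list. The list leaves out buc and gtsf1, germ line genes that were included and are counted above. Its highest were dnd1 at rank 468 with 11.36, nanos3 at rank 755 with 10.75 and dazl at rank 894 with 10.56, and the RNA helicase gene ddx4, often called vasa, was at 9.16. The list's median was 9.06.

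Genes of steroid synthesis and markers of the gonad's other cells spanned a wide range. Highest on the list for sex steroids and gonad soma was the ferredoxin gene fdx1, at rank 453 with 11.39. Among genes of steroid synthesis, cyp17a1 was at rank 831 with 10.63 and cyp11a1.1, of the side-chain cleavage enzyme, at rank 984 with 10.42. All of these were above the median gene. Of the 4 measured granulosa and theca markers, cyp17a1 was the only one above the median gene. The others, gsdf at 7.04, star at 6.30 and the aromatase gene cyp19a1a at 5.77, were below it. The 4 measured testis markers were also below it, with sycp3, a protein of the meiotic chromosome axis, at 5.32, the sperm tail gene tekt1 at 5.26, dmrt1 at 4.80 and amh at 3.99. None of the 35 ranked genes of the list for sex steroids and gonad soma was included, and the list's median was 5.999. With 3.41% of all genes included, such a count in a list of this size says little.

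Of the vitellogenins, vtg2 was included at rank 21 with 14.08, vtg4 was at rank 398 with 11.52 and vtg3 at rank 1583 with 9.84. Liver plasma proteins contributed 6 of 44: tfa, the iron carrier transferrin, at 13.30, the liver fatty acid binding protein gene fabp10a at 12.61, the apolipoprotein genes apoc1 at 12.38 and apoa2 at 12.31, the protease inhibitor gene serpina1l at 12.33 and fetub at 12.08. Just outside were apoa1a at rank 323 with 11.87 and rbp4, the plasma carrier of retinol, at rank 412 with 11.48, with apobb.1 at rank 551. Other liver genes lay well below these, such as the fibrinogen gene fgb at 10.11 and ambp at 9.398. The median of the liver plasma protein list was 9.34.

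Skeletal muscle gave 10 of 56 genes. They encode calcium buffers, with pvalb3 at 13.85, pvalb4 at 12.88 and pvalb2 at 12.14, contractile proteins, with actc1b at 13.83, mylpfa at 12.83, mylz3 at 12.70 and tnnt3b at 12.42, and enzymes of rapid energy supply, with the creatine kinase genes ckmb at 13.35 and ckma at 12.83 and the enolase gene eno3 at 13.08. Next were aldoaa at 11.99, the calcium pump gene atp2a1l at rank 328 with 11.82 and pvalb1 at rank 384 with 11.58. Although its top genes were high, the list's median was 8.74, not far above the median of all genes. Of 7 genes specific to heart muscle, none was included, a count that the 3.41% of all genes makes uninformative in so short a list. The highest were actc1a at rank 3297 with 8.75 and myl7 at 7.58.

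Exocrine pancreas contributed 4 of 24 genes, all proteases secreted into the gut: the elastase genes cela1.6 at 13.27 and ela2l at 12.53, the trypsin gene prss1 at 12.96 and the chymotrypsin gene ctrb.1 at 12.63. More digestive enzymes followed outside the 300, with ctrl at rank 329, ela3l at rank 352 and cpb1 at rank 401. The median of the exocrine pancreas list was 9.80. The intestine list held 1 included gene of 45 (2.22%, near the 3.41% of all genes), the chitinase gene chia.4 at 12.70. It was followed by apoa1a, which is also on the liver list, by chia.1 at rank 459 with 11.38 and by lgals2b at rank 688 with 10.88, and the enterocyte markers fabp2 and vil1 stood at 8.91 and 7.23. On the mix array, chia.4 was at 4.73 and chia.1 at 13.08.

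**Figure D2:**
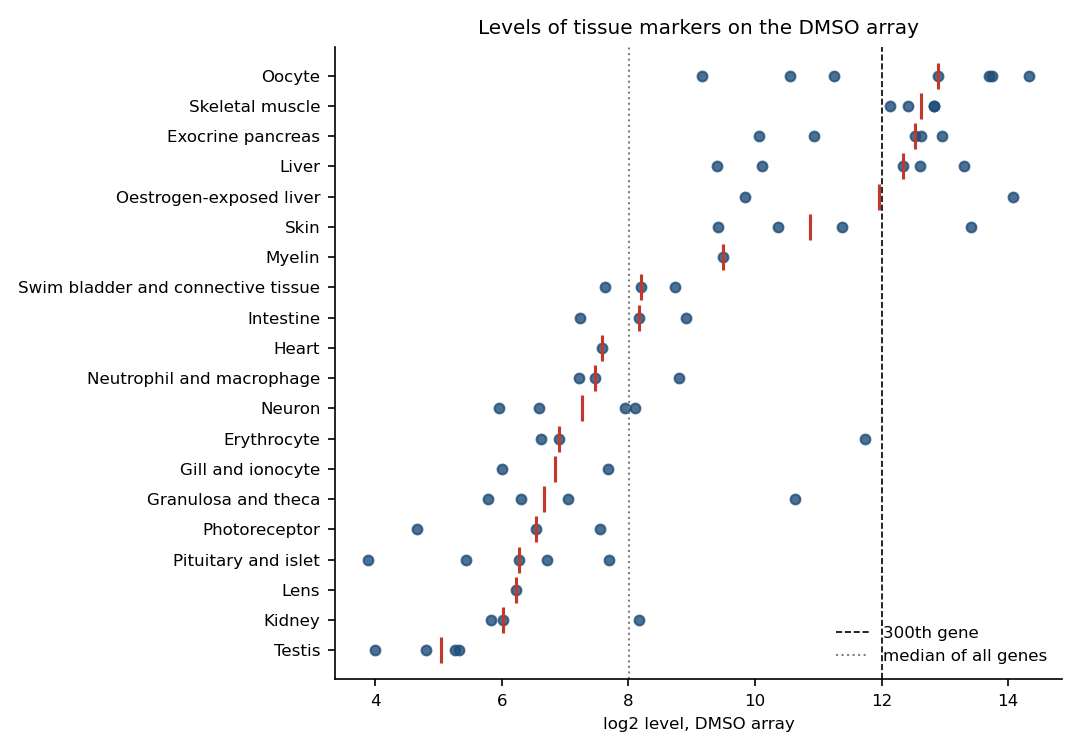
Each point is a marker gene at its log2 level on the DMSO array (x axis), in the row of its tissue, with a red bar at the median of the tissue's measured markers, a dashed line at the 300th gene (12.01) and a dotted line at the median of all genes (8.001). Oocyte, skeletal muscle, exocrine pancreas and liver marker medians lie to the right of the dashed line, and the 4 testis markers lie between 3.99 and 5.32. The longer gene lists for skeletal muscle, exocrine pancreas and liver plasma proteins had lower medians, of 8.74, 9.80 and 9.34.

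For other tissues the lists gave 0 or 1 included gene, and with 3.41% of all genes included, a count this small in a list of this size says nothing particular about the tissue. None of 56 collagen and extracellular matrix genes was included; the highest were col12a1b at rank 1535 with 9.87 and ptgdsb.1 at rank 1555 with 9.86, and col1a1a, a chain of the main collagen of skin and bone, was at 8.74. None of 45 lens and photoreceptor genes, 57 genes of white blood cells or 16 erythrocyte and haem genes was included either. The highest of the lens and photoreceptor list were pde6ha at rank 593 with 11.05 and gnb1b at rank 660 with 10.94. Haemoglobin came closest with hbaa1 at rank 343 and 11.74, and the antigen presentation genes cd74a and b2m were at rank 449 with 11.396 and at rank 583 with 11.09, followed by ifi30a at rank 693 with 10.88. The neuron and myelin list had 1 included gene of 44, the brain-type creatine kinase gene ckbb at 13.13. Next was glulb, a glutamine synthetase gene, at rank 397 with 11.52, then the myelin gene mbpa at rank 2088 with 9.497, and the neuronal markers snap25a and elavl3 were at 8.11 and 5.95. Of the 45 skin and epithelium genes, epcam, an adhesion molecule of epithelia, was included at 13.42, and the keratin gene krt5 followed at rank 464 with 11.37, then the cadherin gene cdh1 at rank 542 with 11.18 and spint2 at rank 586 with 11.07. Of the 19 pituitary and islet hormone genes, none was included, and the highest was the insulin gene ins at 7.69. The medians of these lists all lay below the 8.001 of all genes. They were 5.98 for collagen and extracellular matrix, 6.64 for lens and photoreceptor, 6.76 for white blood cells and 6.64 for erythrocyte and haem. For neuron and myelin the median was 6.66, for skin and epithelium 7.41 and for pituitary and islet hormones 5.90. In all, 9 of the 31 lists had no included gene, the others being the germ plasm, heart muscle and sex steroid lists above and the list for transport of ions and water.

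**Figure D3:**
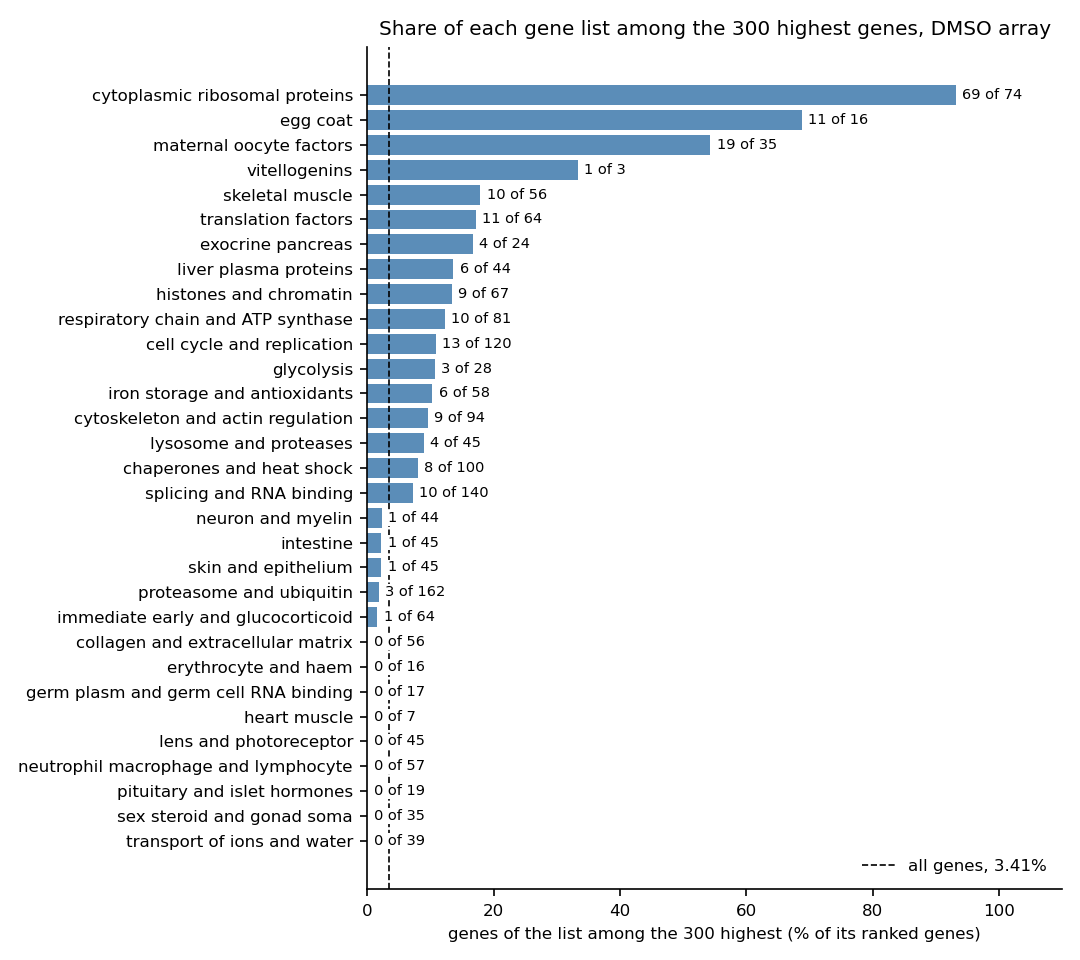
Each bar gives the percentage of a list's ranked genes that are among the 300 highest on the DMSO array (x axis), with the counts beside it and a dashed line at the 3.41% of all genes. Cytoplasmic ribosomal proteins reach 93.2%, egg coat genes 68.8% and maternal oocyte factors 54.3%, and the 9 lists at the bottom have no included gene.

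The list most completely included was that of the cytoplasmic ribosome, with 69 of 74 ranked protein genes. The highest were rplp0, of the ribosomal stalk, at 14.19, rpl12 at 14.09, rpsa at 14.08, rps14 at 14.02, rps2 at 14.01 and rpl23 at 13.997, and the lowest included was rplp2 at 12.27. The 5 others were rpl5a at rank 311 with 11.96, rpl7l1 at rank 332 with 11.796, rps27.2 at rank 335 with 11.77, rpl22l1 at rank 830 with 10.63 and rps27l at rank 2043 with 9.53. Each of these is a second copy or a relative of a ribosomal protein gene that was included: rpl5b was at 13.28, rpl7 at 13.29, rps27.1 at 12.89 and rpl22 at 12.91. The list counts faua, included at 12.47, but not faub, its relative by name, at rank 318 with 11.91. Before the lists were corrected, 68 genes were included.

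Translation factors were included less completely, with 11 of 64. After eef1a1l1 came the elongation factor genes eef1g at 13.76, eef2b at 13.58 and eef1b2 at 13.40, the growth-related gene tpt1 at 13.48 and the poly(A) binding protein gene pabpc1a at 13.34, and the lowest was eif5a2 at 12.16. The eef1a1l3 gene, a second form of elongation factor 1-alpha, was at 12.23.

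Genes of the respiratory chain and ATP synthase gave 10 of 81. After COX1, the highest were parts of the ATP synthase, with atp5mc3b at 13.12, atp5f1b at 13.08 and atp5mc1 at 12.82, then the nuclear-encoded oxidase subunits cox6a1 at 12.36 and cox7b at 12.27, and the lowest was atp5l at 12.07. The list continued without a gap past the limit, with ndufa4a at rank 302, slc25a3b at rank 307 and uqcrfs1 at rank 322. Glycolysis had 3 of 28 genes, gapdh at 14.26, eno3 and the lactate dehydrogenase gene ldhba at 12.30.

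Other genes of metabolism, chosen after their values were seen, were the nucleoside diphosphate kinase genes nme2b.2 at 13.85 and nme2b.1 at 13.52, which are neighbours in the genome, and gyg1a, a glycogenin that primes glycogen synthesis, at 13.81.

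The cell cycle and replication list gave 13 of 120 genes. The highest was ccnb1, the cyclin of the kinase that starts mitosis and meiotic maturation, at 14.01, followed by the mitotic kinesin gene kif20a at 13.64, cdca7a at 13.36, rrm2l, named as a ribonucleotide reductase subunit, at 13.33, and the oocyte genes ccna1 and btg4. The lowest was gmnn, which encodes the replication inhibitor geminin, at 12.01. The polymerase clamp gene pcna was at 12.83, ccnb2 at 12.82 and the mitotic kinase gene plk1 at 12.42. Histones and chromatin gave 9 of 67, led by h1m and the histone chaperone gene nasp at 13.47, then hist1h2a6 at 13.01, npm2b, nap1l1 at 12.86 and the nucleolin gene ncl at 12.74, down to hmgb2a.

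Cytoskeletal genes gave 9 of 94: the tubulin genes tuba4l at 13.898 and tuba8l4 at 13.78, the cytoplasmic actin genes actb1 at 13.79 and actb2 at 13.595, the thymosin gene tmsb5 at 13.36 and tubb4b at 13.24, with tmsb4x the lowest at 12.16. Chaperones gave 8 of 100, with the cyclophilin gene ppiaa at 13.73, hspa8 at 13.64 and hsp90ab1 at 13.44 in the cytosol, and calr3a at 12.88, hspa5 at 12.85 and pdia4, the lowest, at 12.28 in the endoplasmic reticulum. Iron storage and antioxidants gave 6 of 58: the ferritin genes fthl27 at 13.91 and fth1a at 13.81, then txna, a thioredoxin, at 12.52, the peroxiredoxin gene prdx2 at 12.11, sod1 and selenoh. Among 45 lysosomal and protease genes, 4 were included, the cathepsin genes ctss2.1 at 14.25, ctsba at 12.56 and ctsla at 12.45 and the lysosomal membrane gene lamp2 at 13.73.

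Splicing and RNA binding genes gave 10 of 140, led by hnrnpa0l at 13.49, pabpc1a, hnrnpabb at 13.30, the mRNA export adaptor gene alyref at 13.05, hnrnpa1b at 13.04 and khdrbs1a at 13.004, with snrpb, a core protein of the spliceosome, the lowest at 12.07. Proteasome and ubiquitin genes gave 3 of 162: uchl1 at 12.99, ubb at 12.85 and sumo3a. The list of immediate early and glucocorticoid-responsive genes gave 1 of 64, the survival gene mcl1a at 12.26.

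The same ranking was made on each of the other arrays by itself, and no difference of levels between arrays was computed. The DMSO array's 300 genes recurred among the 300 highest on the benzene array for 279 (93%), on the toluene array for 273 (91%), on the formaldehyde array for 272 (90.7%) and on the BTF mix array for 152 (50.7%). On the DMSO and the 3 single-compound arrays together, 258 were included on all 4, and 137 were included on all 5 arrays. The 300th gene stood at 12.01 to 12.07 on every array, since normalization gives the arrays nearly the same distribution.

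The number of recurring genes is given here by class. Counts use the highest probe set of a gene on each array, and levels use the probe set chosen on the DMSO array. For cldng these differ: it ranked 180 on the mix array, where its DMSO probe set was at 7.78. Of the 83 ribosome and translation genes, 82 were included on each single-compound array and 79 on the mix array, and all 10 muscle genes were included on every array. The 36 egg coat and oocyte genes recurred as 35 on benzene, 34 on toluene, 33 on formaldehyde and 0 on the mix. Their median level was 13.17 on the DMSO array, 13.15 on benzene, 13.11 on toluene, 13.196 on formaldehyde and 6.37 on the mix, where they ranged from 5.30 to 11.28 and 29 of them were below the mix array's median gene of 7.54. Of the 33 clone-style names, 6 recurred on the mix array, where the class had a median of 5.99. The 22 cell cycle and chromatin genes recurred as 21, 19 and 18 on the benzene, toluene and formaldehyde arrays and as 2 on the mix, and the 18 other named genes as 16, 17, 18 and 3. Energy and metabolism kept 18 of 27 on the mix array, folding, secretion and protein turnover 8 of 21, cytoskeleton, adhesion and skin 8 of 14, RNA binding and processing 4 of 12, and iron, antioxidant and lysosome 4 of 12.

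**Figure D4:**
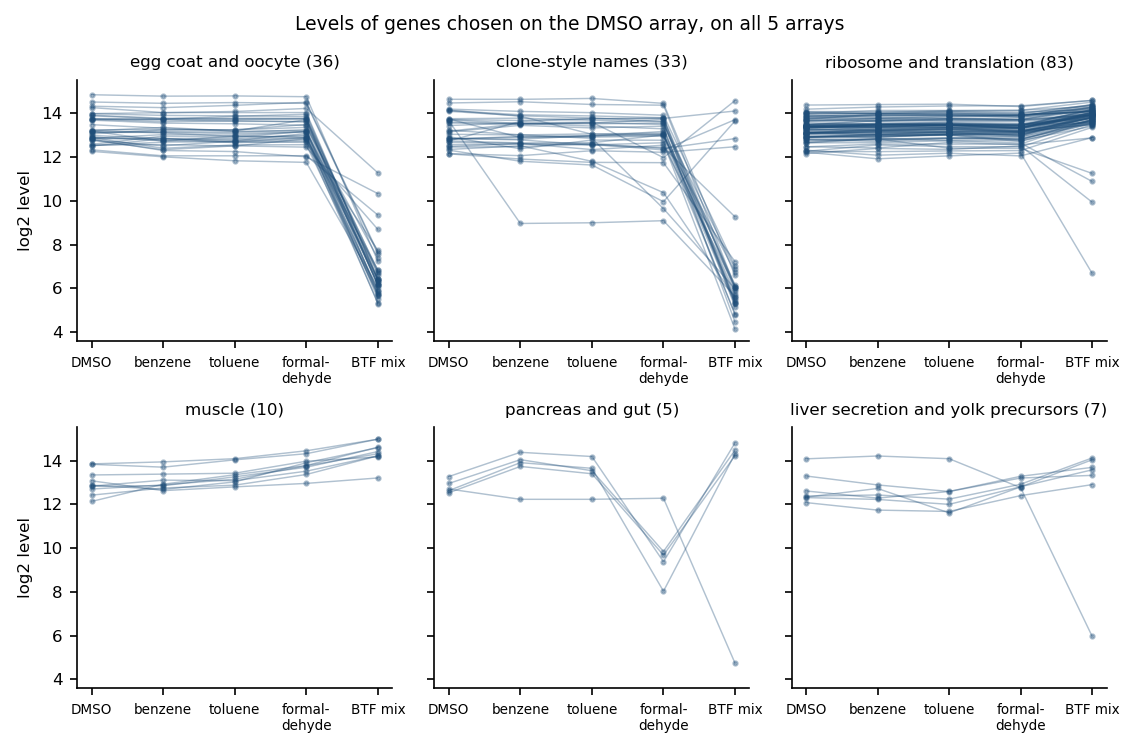
Each line joins the log2 levels (y axis) of one gene of the 300 on the 5 arrays (x axis), for 6 classes with the number of genes in brackets, using the probe set chosen on the DMSO array. Egg coat and oocyte genes lie at 11.76 or higher on the first 4 arrays and between 5.30 and 11.28 on the mix array, muscle genes at 12.14 or higher on all 5, and 4 of the 5 pancreas and gut genes lie between 8.03 and 9.84 on the formaldehyde array.

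Single genes show the same split. For zp3.1 the levels were 14.85 on DMSO, 14.79 on benzene, 14.80 on toluene, 14.76 on formaldehyde and 7.24 on the mix, and it ranked first on all arrays but the mix. For zar1 they were 13.74, 13.62, 13.67, 13.61 and 6.14 in the same order, and for ccnb1 14.01, 14.00, 14.12, 14.25 and 8.26. The mix array alone is low for these 3 genes. The ribosomal gene rplp0 had 14.19, 14.29, 14.34, 14.35 and 14.59, and the muscle gene pvalb3 had 13.85, 13.94, 14.09, 14.45 and 14.98, with no array low.

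Products of the liver and pancreas varied in other ways. The vtg2 levels were 14.08 on DMSO, 14.21 on benzene, 14.09 on toluene, 12.76 on formaldehyde and 5.96 on the mix. The 6 included liver plasma protein genes were not low on the mix. There tfa was at 13.33, fabp10a at 13.69, apoc1 at 14.13, serpina1l at 14.04, apoa2 at 13.58 and fetub at 12.90. Of the 7 genes in the class of liver secretion and yolk precursors, 6 recurred on benzene, 4 on toluene, 7 on formaldehyde and 6 on the mix. The 4 pancreatic proteases were all at 12.5 or above on the DMSO, benzene, toluene and mix arrays, and on the formaldehyde array prss1 was at 9.84, ela2l at 9.68, cela1.6 at 9.38 and ctrb.1 at 8.03. These 4 genes were among the 300 highest on every array but that of formaldehyde. The chitinase gene chia.4, of the same class, was at 12.70 on DMSO, 12.23 on benzene, 12.23 on toluene, 12.28 on formaldehyde and 4.73 on the mix. Without replicate arrays, the spread of these genes between samples of the same condition was not measured.

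For 8 genes, the DMSO array was the only one to have them among its 300 highest: zgc:171776, ddx3xb, kpnb3, caprin2, thop1, zgc:103482, aldh18a1 and sod1. Only zgc:171776 stood high in the ranking, at rank 65. Its levels were 13.67 on DMSO, 8.97 on benzene, 8.997 on toluene, 9.09 on formaldehyde and 5.64 on the mix, so that the DMSO array alone is high. The other 7 were at rank 217 or further down on the DMSO array, and most missed the limit by few ranks on their nearest array only. On formaldehyde they ranked from 322 for sod1 to 503 for aldh18a1. On the mix array they ranked from 450 for sod1 to 7006 for caprin2. On benzene, aldh18a1 was at rank 302, caprin2 at 303, ddx3xb at 307, kpnb3 at 313 and zgc:103482 at 326. On toluene, sod1 was at rank 311 and thop1 at 383.

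For 259 of the 300 genes the rank rests on 1 probe set. Among the 41 genes with several, the lowest probe set lay within 1 log2 unit of the highest for 12 and more than 2 units below it for 24, and for 14 it lay below the median gene. The mpv17 gene, at rank 5, had its 4 probe sets at 14.44, 14.15, 13.33 and 4.19. Only the lowest of these is not marked as able to bind several transcripts. For actc1b the 4 were at 13.83, 13.62, 4.89 and 4.52. Wide gaps also occurred for sall4, with probe sets at 13.86 and 5.43, hsp90ab1 at 13.44 and 4.69, epcam at 13.42 and 5.24, and ppiaa at 13.73 and 6.28. For gyg1a the probe sets were at 13.81 and 6.83, and for kif20a at 13.64 and 8.61. The ranks of these genes rest on the higher probe set. The vldlr gene had probe sets at 12.82, 11.13 and 5.69. Probe sets that the manufacturer marks as able to bind several transcripts stood for 36 of the 300 genes (12%), for 4.19% of all ranked genes and for 4 of the first 5. The marks _a_at, _s_at and _x_at differ in meaning and were counted together. Of the 36 probe sets, 13 ended in _x_at.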

How the data were processed

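The authors deposited 1 log2 value for each probe set on each array. The tools named per the submitters' processing notes are Affymetrix Expression Console 1.1, RMA and MAS5; the sources used here do not say what MAS5 was used for. RMA corrects background, quantile normalizes and summarises probes. Of 15617 probe sets, 115 controls were left out; 10795 of the remaining 15502 had 1 gene symbol, 135 several and 4572 none, and only the first kind was ranked. Symbols were updated with the RefSeq gene table of assembly GRCz12tu, in which 10711 matched; only names and gene order were taken from it. All deposited array columns were used. The ranking and counts ran in Python 3.11.15 with pandas 2.3.3 and were tested on simulated data.

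The members and lists were chosen with earlier results of these data known. The lists were corrected, and genes on no list were classed by hand, after the ranked symbols were seen. Named genes are the 10 highest, the 5 on each side of the limit, per list with at least 5 included genes up to 6 of the highest and the lowest included, per tissue list up to 3 of the highest not included, and all included egg coat, vitellogenin and maternal genes; tissue markers came from a separate list, and other names were chosen after their values were seen. Promoter and protein features were not analysed here.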

Additional observations from a re-analysis of the deposited data

How the results depend on the processing

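No paired analysis was possible because each condition has 1 array, and no array could be left out within a condition. The included counts of 13 lists were recomputed under 8 other settings of the choice of probe set, the symbols and the lists; 1 of these, the lists before correction, was chosen after seeing the data. Of the 104 counts, all but 3 stayed within 1.5 times the reported ones. The 3 arose where probe sets with no symbol took places among the 300, which by construction pushes out the lowest genes: translation factors then had 7, respiratory chain and ATP synthase 5, and iron storage and antioxidants 3. Between 251 and 300 of the genes stayed among the 300 under the settings that kept the lists. All 300 stayed with symbols not updated and with probe sets chosen by their mean over the 5 arrays. Every list count was therefore unchanged there. Leaving out clone-style names frees places, so it could only keep or raise these counts. Signal compression at the top, probe binding and the lack of replicates limit the order of neighbouring genes.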

Other observations

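Probe sets outside the ranking of genes also reached the top. At or above the level of the 300th gene were 408 probe sets, of which 56 had no gene symbol, with a highest level of 14.72, and 30 had several. The highest of those with several symbols, at 15.02, was the highest of all probe sets on the array. In 4 of the 30 every symbol was a zona pellucida gene, and in 2 every symbol was a vitellogenin gene, and none of these probe sets enters the ranking or the lists.

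The 33 clone-style names made up 11% of the 300 genes, and such names made up 6.99% of all ranked genes. The highest after si:dkey-229d11.5 and zgc:173856 were wu:fi42e03 at 14.197, zgc:173837 at 14.15 and si:ch211-12h2.8 at 14.14. On the mix array 26 of the 33 lay below the median gene.

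Of the 300 genes, 293 were placed in the RefSeq gene order, and 9 pairs were direct neighbours. No such count was made for other sets of genes, so the pairs and groups given here are a description only. Some pairs were copies of one gene family, such as pvalb3 and pvalb2, nme2b.2 and nme2b.1, and zp3a.2 and zp3a.1, and others were unrelated by name, such as rpl21 and gtf3ab. There were 3 wider groups: apoc1, apoa2 and rps19 within 6 genes, zgc:171977, zgc:171474 and zgc:173856 within 7 genes, and si:ch211-145c1.1, si:dkey-90l23.1, zgc:171776 and zgc:153499 within 8 genes. Of the last group, zgc:171776 was high on the DMSO array alone, and zgc:153499 was at 12.74 on DMSO, 13.63 on benzene, 13.75 on toluene, 13.78 on formaldehyde and 5.37 on the mix.

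Among further genes named after their values were seen, 3 alpha-2-macroglobulin relatives, protease inhibitors by family, were included: a2m3a at 13.500, a2m3g at 13.49 and a2m3b at 13.199. The amino acid transporter gene slc7a1b was at 14.12, sall4, a transcription factor gene of pluripotent cells, at 13.86 on a probe set marked as able to bind several transcripts and at 5.43 on its other probe set, and the avidin gene avd, named for a biotin-binding egg protein, at 12.85. On the mix array these 6 genes, in the order named and by their higher probe set, had levels of 5.35, 6.30, 6.62, 7.11, 7.82 and 6.13.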
